A study of Mus musculus with 2 samples.

Results

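Integrins, laminins and the glycoproteins of the extracellular matrix were examined in 2 libraries of DG (dentate gyrus) astrocytes. The genes were chosen by symbol, as all integrin α and β subunits, laminin chains, nidogens, perlecan, agrin, dystroglycan, fibronectin, vitronectin, fibrillins, fibulins, elastin and emilins listed in the expression tables. These were 52 of the 16302 genes in the joined tables, namely 25 integrin genes, 11 laminin genes, 5 genes of other basement membrane components and dystroglycan, and 11 genes of glycoproteins. All but Itgad were listed in both libraries, and Itgad was listed only in WT at 0.0345 FPKM.

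The WT library came from C57BL/6 mice with the wildtype genotype, and the β-arr1 KO library came from C57BL/6 mice carrying the Beta-arr1 knockout in every cell. Cells dissociated from adult DG were grown with serum on Matrigel, a basement membrane extract rich in laminin protein, and shaken to remove loosely attached cells before RNA was taken. A legend of the study names 3 mice in each group for its RNA-seq and qRT-PCR samples, but 1 PCR-amplified cDNA library was given for each genotype, so no difference given here has an error between animals or cultures, and no p-value was computed. Litter and culture cannot be told apart from genotype.

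Cells grip the matrix through integrins, each a pair of an α and a β subunit in the plasma membrane that binds the matrix outside and the actin cytoskeleton inside. Laminins are trimers of an α, a β and a γ chain and form the sheet of the basement membrane, to which nidogen, perlecan and agrin add links. In the brain, astrocyte endfeet rest on such a sheet around vessels and under the pia, and bind it through dystroglycan and integrins. Fibronectin, fibrillins, fibulins, emilins and elastin form the fibres of the interstitial matrix, where elastin is laid onto fibrillin microfibrils with the help of fibulins.

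Levels are FPKM as deposited, which are scaled for transcript length and library size, so that genes can be compared with each other. The tables summed to 374406 FPKM in WT against 373279 in β-arr1 KO, and their lowest values corresponded to about 9540000 and 9820000 mapped fragments. Arrb1, the deleted gene, was at 7.62 FPKM in WT against 2.72 in KO, a ratio of 0.358. All 9 astrocyte markers were listed in both libraries and summed to 313.0 FPKM in WT against 358 in KO, of which Gfap made 189 and 192 FPKM. Of the 9, 4 (S100b, Slc1a2, Aldoc and Aqp4) were above 3/2 and 0 below 2/3, with a median log2 ratio of 0.48, and their part in the results was not tested. Of 4 Y chromosome genes, 4 were listed in KO (8.44 FPKM in sum) and 0 in WT, while Xist, expressed from the inactive X of female cells, was at 39.4 FPKM in WT and 29.7 in KO. The sex makeup of the cultures therefore differed, and cannot be told apart from genotype either.

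Expression change was the ratio of FPKM, β-arr1 KO vs. WT, for genes reaching 1 FPKM in WT or KO, and a ratio above 3/2 or below 2/3 counted as past the limits. Intervals are exact 95% Clopper-Pearson intervals from estimated fragments and hold counting error only. Of the 52 genes, 41 reached the minimum, with 49 to 193389 estimated fragments per library, and 10 were past the limits, 5 higher and 5 lower in KO. Among all 12646 genes analysed, 17.8% were past the limits, 9.56% higher and 8.28% lower. The 5 lower genes were all among the 10 glycoproteins analysed. Of the 5 higher genes, 2 were among 18 integrins, 1 among 8 laminins and 2 among the 10 glycoproteins.

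**Figure D1:**
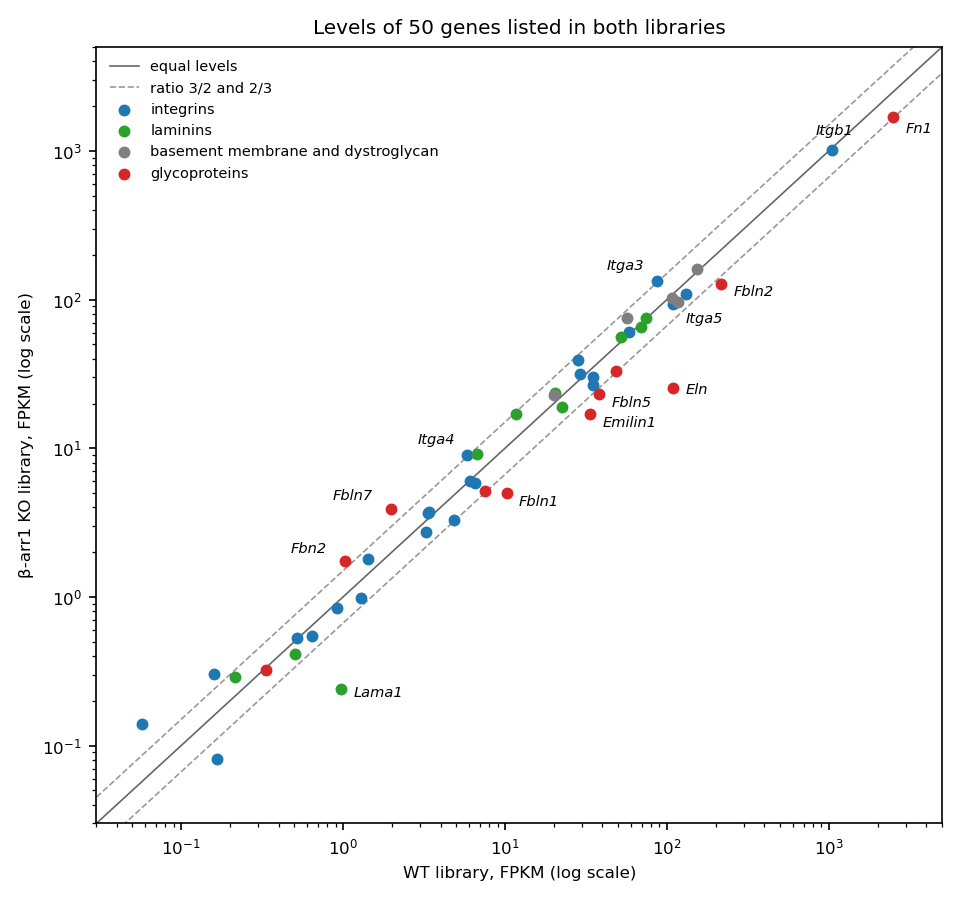
Levels in the WT library (x axis) and the β-arr1 KO library (y axis), both in FPKM on log scales, with 1 point for each of 50 genes listed in both. The solid line marks equal levels and the dashed lines the ratios 3/2 and 2/3; Eln lies farthest below the lines among genes over 1 FPKM, and Fn1 and Itgb1 are the highest glycoprotein and integrin.

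The glycoprotein genes were lower in β-arr1 KO as a group. Of the 11 genes, 10 reached the minimum, and 8 of these had a ratio under 1, 5 of them below 2/3, while 2 were above 3/2. The median log2 ratio of the 10 genes was -0.64, and that of all genes analysed and listed in both libraries was 0.02. With a minimum of 5 FPKM, 5 of 8 glycoproteins were below 2/3, where 5.74% of all 9397 genes at this level were. This minimum left out Fbln7 and Fbn2, the 2 genes above 3/2. Fbln1, 1 of the 5, reached it in WT alone, at 10.2 FPKM against 4.97 in KO. Eln, Emilin1 and Fbln5 had rows of different bounds in the WT and KO tables, and among the 5 analysed glycoproteins with equal bounds 2 (Fbln1 and Fbln2) were below 2/3. The glycoproteins summed to 2956 FPKM in WT against 1943 in KO, and without Fn1 to 466 FPKM and 243 FPKM.

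Eln, which encodes elastin, the protein of the rubber-like core of elastic fibres, was at 109 FPKM in WT against 25.5 in KO. This was the lowest ratio of the 41 genes, 0.235 (counting interval, 0.214 to 0.257), from an estimated 2499 and 604 fragments. The gene (NCBI gene 13717) lies on the minus strand of chromosome 5 of mm9, and its WT row ran from 135178466 to 135223188. Its rank among all genes in the library was 536 in WT and 2966 in KO.

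Emilin1 encodes a glycoprotein found where elastin meets the microfibrils, and it was at 33.6 FPKM in WT against 16.9 in KO. Its ratio was 0.503 (counting interval, 0.455 to 0.555). Emilin2, its relative, was at 7.48 FPKM in WT against 5.15 in KO. The ratio of Emilin2, 0.689, lay between the limits, and its interval of 0.569 to 0.833 covered 2/3.

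Fibulins bind tropoelastin, fibrillin and basement membrane proteins, and 3 of the 4 listed under that name were lower in KO. Fbln2 was the most abundant, at 216 FPKM in WT against 128 in KO, a ratio of 0.594 (counting interval, 0.574 to 0.613). Fbln5, which is needed for elastic fibre assembly, was at 38.2 FPKM in WT against 23.1 in KO, a ratio of 0.605 (counting interval, 0.564 to 0.649). Fbln1 was at 10.2 FPKM in WT against 4.97 in KO, a ratio of 0.486 (counting interval, 0.402 to 0.586). In contrast with these 3 genes, Fbln7 was higher in KO, at 1.99 FPKM in WT against 3.93 in KO. With about 58 fragments in WT and 118 in KO, its ratio was 1.97, and 3/2 lay within the interval of 1.43 to 2.75.

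Fn1, which encodes fibronectin, was by far the most abundant of the 52 genes, at 2490 FPKM in WT against 1700 in KO. It ranked 10 among all genes in WT and 15 in KO, and made up 84.2% and 87.5% of the summed glycoprotein level. Its ratio of 0.683 lay just inside the lower limit. Counting error alone is small at this level (counting interval, 0.678 to 0.688), and a common median ratio for all genes, or a common upper quartile, moved the value to 0.675 or 0.674.

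Fibrillins build the microfibrils, and the listed pair differed in direction. Fbn1 was at 48.8 FPKM in WT against 33.3 in KO, a ratio of 0.684 (counting interval, 0.656 to 0.713). Fbn2, expressed mainly during development in most tissues, was at 1.03 FPKM in WT against 1.73 in KO, a ratio of 1.68 (counting interval, 1.31 to 2.17). With 1 FPKM added to each library the ratio of Fbn2 was 1.35, between the limits. Vtn, which encodes vitronectin, an adhesive protein of plasma, was at 0.333 FPKM in WT against 0.323 in KO and did not reach the minimum.

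Sequences upstream of the RefSeq start of the lower glycoprotein genes are shown because these genes lay on the same side of the limits. Their rows also give a start. The RefSeq promoter table (GRCm38.p6) matched 34 of the 52 genes by symbol, including 4 of the 5 lower ones, and did not include Eln. The 250 bases before the RefSeq start were placed on NCBIM37 (mm9) by exact match. For each of the 4 genes the first transcribed base of RefSeq was the first base of the WT row. Capitals mark the GC box GGGCGG or its reverse complement, a sequence bound by Sp and KLF factors.
Emilin1, chr5:31215909-31216158, plus strand: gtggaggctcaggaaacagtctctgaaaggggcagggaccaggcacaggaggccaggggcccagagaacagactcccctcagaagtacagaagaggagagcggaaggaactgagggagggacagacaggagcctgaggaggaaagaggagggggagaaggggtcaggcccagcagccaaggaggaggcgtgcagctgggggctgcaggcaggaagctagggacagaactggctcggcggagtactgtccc
Fbln1, chr15:85036188-85036437, plus strand: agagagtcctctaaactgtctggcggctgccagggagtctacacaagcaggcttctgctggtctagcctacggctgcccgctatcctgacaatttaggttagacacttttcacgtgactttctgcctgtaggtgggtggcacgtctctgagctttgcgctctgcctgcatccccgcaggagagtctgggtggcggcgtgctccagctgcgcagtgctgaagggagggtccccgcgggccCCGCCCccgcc
Fbln2, chr6:91162508-91162757, plus strand: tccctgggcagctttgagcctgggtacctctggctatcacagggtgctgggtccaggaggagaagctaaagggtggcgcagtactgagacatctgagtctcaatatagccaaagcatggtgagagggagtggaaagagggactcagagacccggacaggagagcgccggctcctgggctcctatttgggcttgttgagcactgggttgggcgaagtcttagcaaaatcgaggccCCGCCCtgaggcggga
Fbln5, chr12:103057330-103057579, minus strand: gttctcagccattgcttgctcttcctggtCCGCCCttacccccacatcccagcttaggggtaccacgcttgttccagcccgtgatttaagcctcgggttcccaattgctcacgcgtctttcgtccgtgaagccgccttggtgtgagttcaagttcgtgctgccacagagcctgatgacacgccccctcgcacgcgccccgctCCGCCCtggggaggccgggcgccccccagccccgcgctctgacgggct

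The GC box was found in 3 of these 4 sequences, 2 times in that of Fbln5, and was absent from that of Emilin1. It occurred in 17 of the 34 promoters matched (50%) and in 32.7% of all 32817 promoters of the same length. Neither the TATA box TATAAA, the AP-1 sequence TGANTCA nor the nuclear receptor hexamer AGGTCA was found on either strand of the 4 sequences. Over all promoters, 12.4%, 6.75% and 14.0% held these letters. A match of letters is not a binding site, and no binding was measured. The Emilin1 row in KO started 369 bases upstream of that in WT, and the Fbln5 row 8 bases upstream, so the transcript to which a value was scaled can differ between the tables. The Emilin1 sequence shown thus lay inside the KO row (start 31215790) and the GENCODE gene (start 31215775). The Fbln2 sequence lay inside its GENCODE gene (start 91162449), and that of Fbln1 did so in part (start 85036379).

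Genes that assemble elastic fibres were examined beside the glycoproteins, from a list of 17 genes of which 15 were listed and 14 reached the minimum. Of the 14 genes, 4 were below 2/3 and 2 counted as higher, where 8.28% of all genes analysed were lower and 9.56% higher. Mmrn2 alone had a ratio above 3/2, since Loxl3 was missing from WT and had no ratio. The median log2 ratio was -0.28 over the genes listed in both libraries. The lower genes were the microfibril-associated Mfap4 (16.6 FPKM in WT against 5.84 in KO), Mfap2 (8.18 and 3.56 FPKM) and Mfap5 (14.7 and 7.47 FPKM), with ratios of 0.353, 0.435 and 0.507. The fourth lower gene, Efemp1, which encodes fibulin-3, was at 147 FPKM in WT against 94.6 in KO, a ratio of 0.641. Lysyl oxidases, which crosslink elastin and collagen, were between the limits where both libraries had a value. Lox had a ratio of 0.729, Loxl1 one of 0.667, just inside the limit, and Loxl2 one of 0.826. Latent TGF-β binding proteins, which sit on microfibrils, had ratios of 1.06 for Ltbp1, 1.33 for Ltbp2, 0.977 for Ltbp3 and 0.935 for Ltbp4. Of the higher genes, Mmrn2 was at 1.28 and 1.95 FPKM, and Loxl3 was listed in KO alone at 90.8 FPKM, while a WT row named Aup1 at 95.1 FPKM spanned the Loxl3 locus.

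Fibroblast markers were mostly lower in KO, as the glycoproteins were. Of 5 fibroblast markers, 4 reached the minimum, 3 of them below 2/3 and 1 above 3/2. Of all genes analysed, 8.28% were lower and 9.56% higher. The list summed to 523 FPKM in WT against 278 in KO. Col1a1 was at 420.5 FPKM in WT against 237 in KO, Col1a2 at 92.3 and 34.3 FPKM, and Dcn at 6.11 and 0.831 FPKM. Dcn thus reached the minimum in WT alone. Lum had a value in WT alone, 0.660 FPKM, whereas Pdgfra was higher in KO, at 3.12 and 6.03 FPKM. In bulk RNA, fewer cells of a type and less RNA per cell cannot be told apart, and the part of such cells in the glycoprotein levels was not tested.

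**Figure D2:**
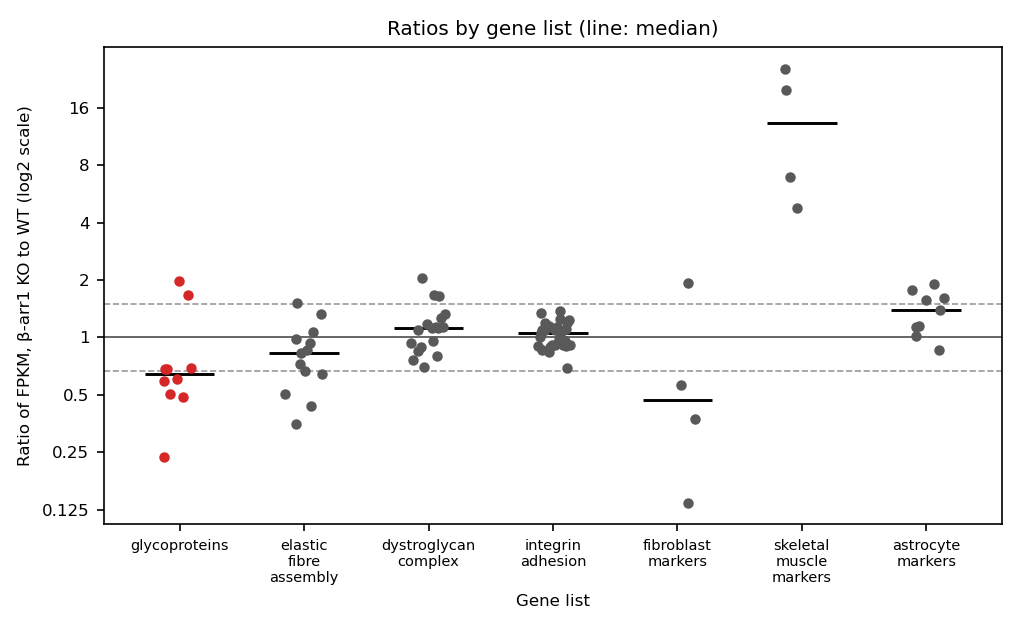
Ratio of FPKM, β-arr1 KO to WT (y axis, log2 scale), for the 10 glycoproteins analysed and for the analysed genes of 6 other lists that both libraries list (x axis). Points are genes, black lines medians and dashed lines the limits 3/2 and 2/3; the glycoprotein and fibroblast marker medians lie below 2/3, while every integrin adhesion gene lies between the limits.

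Integrin genes as a group had similar summed levels in WT and KO. Of 25 listed genes, 18 reached the minimum, 16 lay between the limits and 2 above 3/2, where 9.56% of all genes analysed were higher. The median log2 ratio of the 18 was -0.03. The 7 others (Itga2, Itga2b, Itgad, Itgae, Itgax, Itgb6 and Itgb7) were under the minimum in both libraries. They lay between 0.0345 and 0.917 FPKM in WT and reached at most 0.849 FPKM in KO. All 25 genes summed to 1603 FPKM in WT against 1585 in KO, of which Itgb1 made 1053 and 1020 FPKM. The α subunits summed to 371 FPKM in WT against 416 in KO, with a median log2 ratio of 0.09. The β subunits summed to 1231 and 1168 FPKM, with a median of -0.15.

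All 3 laminin-binding α subunits had a ratio above 1, from 1.08 to 1.54, and they summed to 144 FPKM in WT against 205 in KO. Itga3, whose product pairs with β1 and binds laminins with α3 or α5 chains, was at 86.8 FPKM in WT against 134 in KO. Its ratio of 1.54 was just above the limit, from an estimated 3883 and 6173 fragments, and the interval of 1.48 to 1.61 covered 3/2. Itga3 (NCBI gene 16400) lies on the minus strand of chromosome 11 from 94905796 to 94938028, with the same bounds in both tables. Itga7, a laminin receptor best known from muscle, was at 28.1 FPKM in WT against 39.5 in KO, a ratio of 1.404 (counting interval, 1.30 to 1.52). Itga6, the partner of β1 and β4, was at 29.3 and 31.6 FPKM, and the interval of its ratio of 1.08 included 1 (0.997 to 1.17). Skeletal muscle markers summed over 8 genes to 7.11 FPKM in WT against 47.1 in KO, and 4 reached the minimum. Acta1 did so in both libraries, at 5.95 and 28.4 FPKM. Myog (0.160 and 4.12 FPKM), Tnnt3 (0.508 and 10.1 FPKM) and Chrna1 (0.382 and 2.65 FPKM) did so in KO alone. With such low WT levels, their ratios above 3/2 followed from the minimum itself. The part of these markers in the level of Itga7 was not tested.

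Receptors for the RGD tripeptide of fibronectin and vitronectin lay between the limits where they reached the minimum. Itga5, which forms the main fibronectin receptor with β1, was at 109 FPKM in WT against 93.2 in KO, a ratio of 0.858 (counting interval, 0.821 to 0.896). Itgav was at 58.2 and 61.0 FPKM, a ratio of 1.05, and Itga8 at 6.56 and 5.82 FPKM, a ratio of 0.886. The order of the α subunits thus differed between the libraries, with Itga5 before Itga3 and Itgav in WT and Itga3 before Itga5 and Itgav in KO. The level of Itga3 relative to that of Itga5 was 0.799 in WT and 1.44 in KO, and neighbours in this order had no replicates to set their spread. Itga3 made up 23.4% of the summed α subunit level in WT and 32.2% in KO, and Itga5 29.2% and 22.4%.

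Itga4, whose product binds fibronectin and VCAM1, was the other integrin above the limit, at 5.85 FPKM in WT against 9.08 in KO. Its ratio was 1.55 (counting interval, 1.39 to 1.73). This value depended on the rows used at the locus, since in WT a row of the neighbouring gene Cerkl (2.22 FPKM) overlapped that of Itga4 and in KO no row did. Itga4 and Cerkl summed gave a ratio of 1.12, and 1 FPKM added to each library gave 1.47. Itga9, a relative of Itga4, was at 3.42 and 3.70 FPKM.

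Collagen-binding α subunits were low. Itga11 was at 4.86 FPKM in WT against 3.31 in KO, and its ratio of 0.680 lay just inside the limit (counting interval, 0.551 to 0.838). Itga10 was at 1.42 and 1.80 FPKM, and 1 lay within the interval (0.910 to 1.78) of its ratio of 1.27. Itga1 was in neither table under its own symbol. In GENCODE, Itga1 spans chromosome 13 from 115748287 to 115892172 and holds the gene Pelo inside it, and the row named Pelo ran from 115743342 to 115892215 in WT. That row, at 29.0 FPKM in WT against 32.7 in KO, therefore covers both genes, and the level of Itga1 was not analysed here.

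Among β subunits, Itgb1, the partner of most α subunits, was at 1053 FPKM in WT against 1020 in KO, a ratio of 0.969 (counting interval, 0.955 to 0.983). It made up 85.5% of the summed β subunit level in WT and 87.3% in KO. Its level was 3.16 times the sum of its 11 listed α partners in WT and 2.66 times in KO. Itgb5, which pairs with αv, was at 130 and 109 FPKM, a ratio of 0.839. Apart from β1, the other αv partners were low. Itgb8, known for TGF-β activation by astrocytes, was at 6.06 and 5.99 FPKM (ratio 0.989). Itgb3 was at 3.35 and 3.64 FPKM (ratio 1.09). Itgb4 was at 3.27 and 2.76 FPKM, and Galk1 overlapped its row by its end in both tables.

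Leukocyte integrins were present in the cultures. Itgam, the α subunit of complement receptor 3 on microglia, was at 34.9 FPKM in WT against 30.4 in KO, a ratio of 0.871. Its partner Itgb2 was at 35.2 and 26.5 FPKM, a ratio of 0.753 (counting interval, 0.682 to 0.830). Both lay between the limits, as did Itgal at 1.29 and 0.989 FPKM. All 7 microglia markers were listed and summed to 392 FPKM in WT against 310.3 in KO, with 1 of 7 (Cd68) below 2/3, and their part in the levels of Itgam and Itgb2 was not tested.

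Adaptors and signalling partners of integrins at the membrane lay between the limits where analysed. Of 32 genes, which include talins, kindlins, vinculin, paxillin and integrin-linked kinase, 29 reached the minimum, 0 were past the limits, and ratios ran from 0.690 to 1.38. The lowest was that of Fermt3, the kindlin of blood cells, at 21.5 and 14.8 FPKM, and the highest that of Lims2, at 19.3 and 26.6 FPKM. Their median log2 ratio was 0.08.

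**Figure D3:**
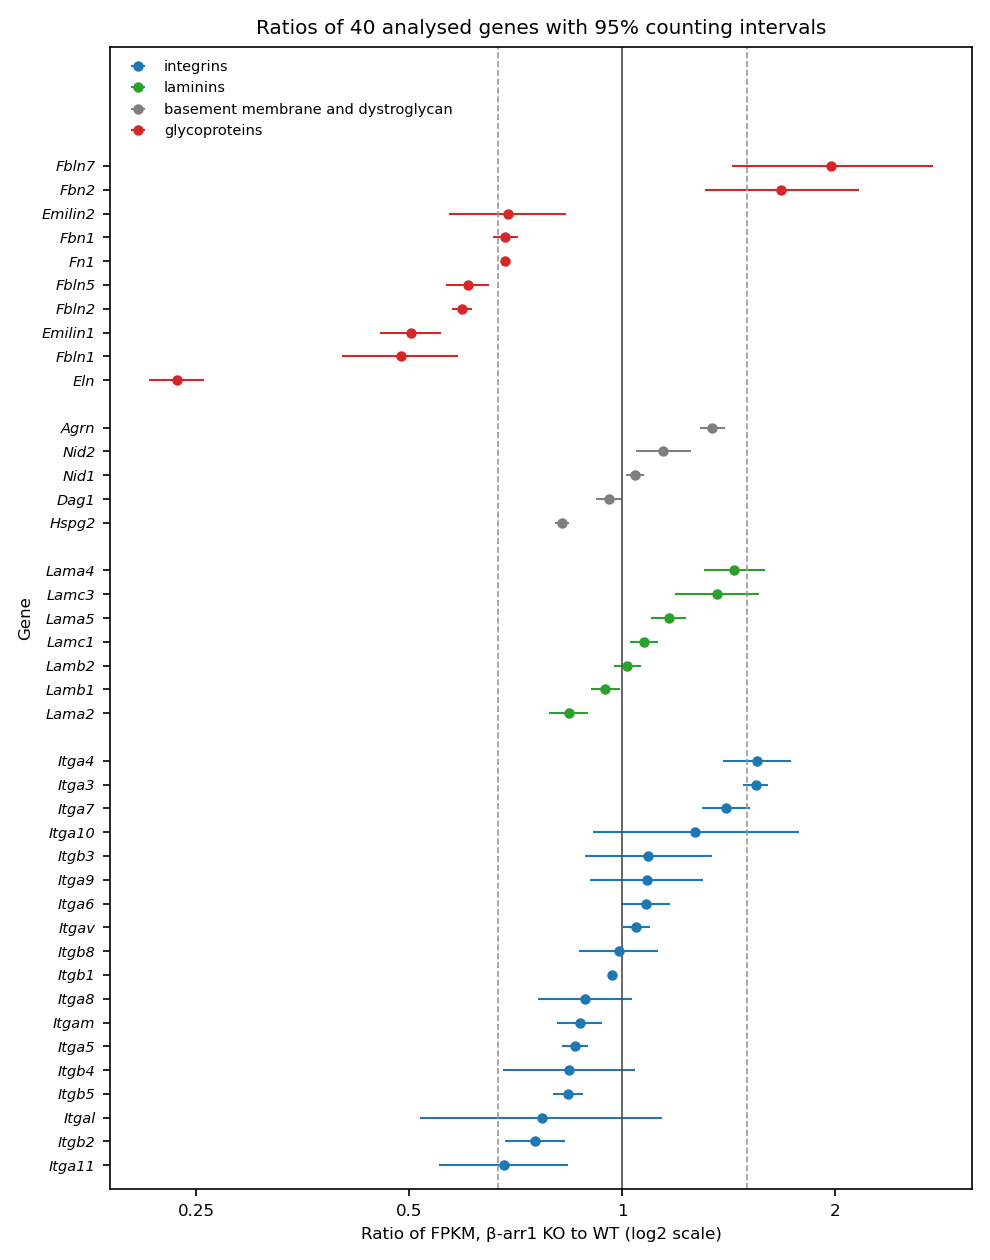
Ratio of FPKM, β-arr1 KO to WT (x axis, log2 scale), for 40 genes that reached 1 FPKM in WT or KO (y axis), by class. Points are ratios, bars 95% counting intervals, the solid line a ratio of 1 and the dashed lines the limits; intervals of 5 glycoproteins lie below 2/3 as a whole, and no interval shown lies above 3/2 as a whole.

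Laminin chains were mostly between the limits. Of 11 genes, 8 reached the minimum, 7 of these lay between the limits and 1 above 3/2, where 9.56% of all genes analysed were higher. The median log2 ratio of the 8 was 0.16. The levels summed to 262 FPKM in WT against 275 in KO. Lama3 (0.504 and 0.411 FPKM) and Lamb3 (0.216 and 0.289 FPKM) were under the minimum in both libraries.

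Lamc1, which encodes the common γ1 chain, was at 52.4 FPKM in WT against 56.3 in KO, a ratio of 1.07. Lamc3 was at 6.76 and 9.21 FPKM, a ratio of 1.36 (counting interval, 1.19 to 1.56).

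Of the α chains, which carry the binding sites for receptors, 3 were above the minimum. Lama2, the chain of muscle and of glial basement membranes, was at 22.4 FPKM in WT against 18.9 in KO, a ratio of 0.840 (counting interval, 0.788 to 0.896). Lama4, a chain of vessel walls, was at 11.8 and 17.0 FPKM, a ratio of 1.44 (counting interval, 1.30 to 1.59). Of 7 endothelial markers, 6 reached the minimum, with 2 above 3/2 (Pecam1, ratio 1.72, and Flt1, 1.71), 1 below 2/3 (Cdh5, 0.507) and a median log2 ratio of 0.38, and the list summed to 80.5 and 77.2 FPKM. Of 6 mural markers, 3 reached the minimum, with ratios of 0.615 for Rgs5, 1.41 for Cspg4 and 0.996 for Acta2, which made 2478 of 2508 FPKM in WT, and Pdgfrb and Kcnj8 were not listed. The part of these cells in the level of Lama4 was not tested. Lama5 was at 20.3 and 23.6 FPKM, a ratio of 1.16 (counting interval, 1.10 to 1.23). The 3 intervals left out 1, and the most abundant α chain was Lama2 in WT and Lama5 in KO, with shares of the α sum from 40.1% to 31.4% for Lama2, from 36.3% to 39.3% for Lama5 and from 21.0% to 28.3% for Lama4. Lama1 stayed just under the minimum, at 0.968 FPKM in WT against 0.240 in KO, and its ratio of 0.248 (counting interval, 0.148 to 0.4001) rested on an estimated 86 and 22 fragments.

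The β chains were level. Lamb1 was at 69.2 FPKM in WT against 65.6 in KO, a ratio of 0.947, and Lamb2 was at 74.1 and 75.4 FPKM, a ratio of 1.02. Levels of β1, β2 and γ1 thus each lay within 52.4 to 75.4 FPKM in both libraries. The β chains summed to 143.5 FPKM in WT against 141.2 in KO, and the α chains to 56.0 and 60.1 FPKM.

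**Figure D4:**
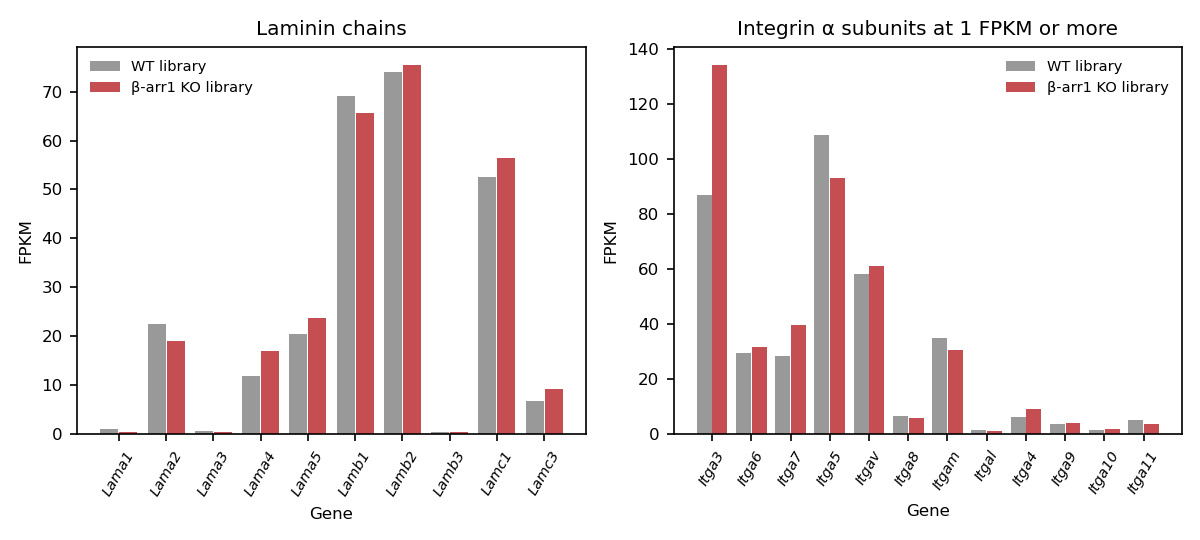
Levels in FPKM (y axis, linear from 0) of 10 laminin chains (left) and of the 12 integrin α subunits that reached 1 FPKM in WT or KO (right). Grey bars are the WT library and red bars the β-arr1 KO library, 1 library each without error bars; Itga3 is the highest α subunit in KO at 134 FPKM, and Itga5 in WT at 109 FPKM.

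The other basement membrane components all lay between the limits, with ratios from 0.822 to 1.34. Nid1, which encodes nidogen, the link between laminin and collagen IV, was at 153 FPKM in WT against 160 in KO. Nid2 was at 20.1 and 22.9 FPKM, a ratio of 1.14. A row of 2700060E02Rik (16.5 and 14.4 FPKM) overlapped that of Nid2 in both libraries, and the sum of these rows gave a ratio of 1.02. Hspg2, which encodes perlecan, was at 117 FPKM in WT against 96.4 in KO, a ratio of 0.822 (counting interval, 0.803 to 0.841). Agrn, which encodes agrin, a heparan sulfate proteoglycan that binds laminin and dystroglycan, was at 56.4 FPKM in WT against 75.6 in KO, a ratio of 1.34 (counting interval, 1.29 to 1.3995). The direction thus differed between these proteoglycans, although neither passed the limits.

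Dag1, which encodes both subunits of dystroglycan, was at 107 FPKM in WT against 103 in KO, a ratio of 0.957 (counting interval, 0.918 to 0.999). Of 19 genes of its complex and of the enzymes that glycosylate it, 18 reached the minimum, with a median log2 ratio of 0.16. Of the 18, 3 were above 3/2 and 0 below 2/3, where 9.56% of all genes analysed were higher and 8.28% lower. Dmd, which encodes dystrophin, the link from dystroglycan to actin, was at 12.2 FPKM in WT against 25.1 in KO, a ratio of 2.05 (counting interval, 1.94 to 2.18). Dtna, which encodes α-dystrobrevin, was at 12.9 and 21.6 FPKM, a ratio of 1.68, and Sgcd, which encodes δ-sarcoglycan, at 3.92 and 6.49 FPKM, a ratio of 1.66. Utrn, the close relative of dystrophin, was at 23.0 and 26.1 FPKM. The enzymes Pomt1, Pomgnt1 and Large had ratios of 1.12, 1.10 and 1.26. Muscle uses this complex too, and astrocyte endfeet anchor the water channel Aqp4 to it. Acta1, the skeletal muscle marker that reached the minimum in both libraries, was above 3/2, as were 4 of 9 astrocyte markers. Astrocyte ratios ran from 0.862 for Gja1 to 1.92 for Aqp4. The part of either cell type in the level of Dmd was not tested.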

How the data were processed

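RNA from cultured DG astrocytes was measured in 1 WT and 1 β-arr1 KO library. Per the paper's methods and the submitters' processing notes, the authors aligned paired reads to mm9 with TopHat (1.4.0), estimated expression with Cufflinks and deposited FPKM values per gene. The annotation was not given in the sources used here, and the tables hold no counts.

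Tables were joined by symbol, keeping the highest row of a repeated symbol, and a gene missing from a table was given 0. Starts were raised by 1, after which 20 of 52 equalled GENCODE (NCBIM37) starts and before which 0 did. Mapped fragments were estimated from values under 0.15 FPKM of genes with 1 transcript over 1000 bases, which fall on steps of 1 to 3 fragments (69.2% of 416 genes in WT and 69.9% of 435 in KO, within 5%). Fragments per gene used the longest GENCODE transcript less 170 bases, so intervals are too narrow where a shorter transcript or reads of another gene contribute. The computation was tested on simulated data. No test was possible with 1 library per genotype. Genes of the rule were named, except that the values of 1 gene are not reported here, although it stays in counts, sums and medians. The genes and lists were chosen with earlier results of these data known. Alternatives were other minimum levels, pseudocounts, scalings and limits, summed rows and equal bounds. Computation used scipy 1.17.1 and pandas 2.3.3 under Python 3.11.15, with plots from matplotlib 3.10.9.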

Additional observations from a re-analysis of the deposited data

How the results depend on the processing

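The glycoproteins had a median log2 ratio below 0 under every alternative tried. Numbers past the limits moved with the choice of genes and limits. A minimum of 0.1 FPKM, and every gene above 0 in both libraries, gave 4 integrins higher, 1 lower, 1 laminin lower and a glycoprotein median of -0.55, with 2070 of all genes higher and 1899 lower under the former. A minimum of 0.5 FPKM gave 1 laminin lower and a laminin median of 0.0642. A minimum of 5 FPKM gave 3 of the 52 genes higher and 0 glycoproteins higher, with 640 of all genes higher and 539 lower, and 1 FPKM in both libraries gave 750 and 622. A pseudocount of 1 FPKM gave 3 genes higher, 1 integrin and 1 glycoprotein among them. Limits of 2 and 0.5 gave 1 gene higher and 2 lower, 0 integrins higher, and 0 glycoproteins higher and 2 lower, with 604 of all genes higher and 559 lower. With equal bounds only, which leaves 24 of the 41 genes, 3 genes were higher and 2 lower, 1 integrin and 1 glycoprotein were higher and 2 glycoproteins lower. The medians were then -0.20 for integrins, 0.24 for basement membrane and dystroglycan and -0.55 for glycoproteins, and 551 of all genes were higher and 464 lower. Leaving out or summing overlapping rows, an alternative chosen after seeing the data, gave 1 integrin higher and a basement membrane median of -0.000895. Other minimums and equal bounds change by construction which genes enter. The cause of the other differences was not tested.

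Of the single ratios, 2 crossed a limit among 7 alternatives of scaling, pseudocount and rows, Fbn2 under 1 (a pseudocount of 1 FPKM) and Itga4 under 2 (that pseudocount and summed overlapping rows). No ratio changed direction. Members under 1 FPKM rested on few fragments, and counting error limits their ratios. No paired analysis was possible because there was 1 library per genotype and the labels give no replicate numbers.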
